A study of Rattus norvegicus with 10 samples.

Results

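The 5′ fragments of the less abundant tRNAs were followed in small RNA libraries made from the 2 brain sides of each of 5 rats. A fragment was taken when it begins at position 1 of its tRNA and when that tRNA is not a Leu tRNA and does not carry one of 11 other anticodons (GlyGCC, GlyCCC, ValCAC, ValAAC, GluCTC, GluTTC, HisGTG, LysCTT, LysTTT, MetCAT and GlnCTG). This gave 97 of the 2262 listed fragments, out of 1305 that begin at position 1, from 20 of 69 tRNAs and 13 of 38 anticodons. The rats were Sprague-Dawley animals whose right middle cerebral artery had been blocked for a time and reopened, and brain was collected 24 h afterwards. The right brain gave 5 ischemic libraries and the left brain of the same animals 5 control libraries, so no control came from an animal without the operation. The titles name the rat (45, 52, 61, 71 or 72) and the side. For 4 of the 10 libraries (right side of rats 45 and 52, left side of rats 71 and 72) the source label contradicts the side, which was followed here. Grouping by the source labels leaves no called level or share, and in the 6 libraries whose label matches the side the levels differ in the same direction.

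A tRNA brings an amino acid to the ribosome and reads the codon with its anticodon, which lies in a loop near the middle of the molecule. Under stress, ribonucleases such as angiogenin cut tRNAs in or beside this loop, and the piece from the 5′ end can persist as a small RNA. In these libraries the most abundant such pieces come from Val, Gly, His and Glu tRNAs. The fragments described here come from tRNAs for Cys, Val, Gln, Pro, Ala, Arg, Gly, Asp and Ser. Bulk libraries cannot tell apart more fragment per cell and more cells that hold it.

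The most abundant fragment of each of the 8 leading anticodons is shown here, because the levels and the cut positions turn on these sequences. They are given 5′ to 3′ as the authors list them, as DNA letters of the tRNA's own strand. Capitals mark bases of the anticodon loop. The loop could not be placed for tRNA1609-AlaAGC and tRNA5710-ArgCCG, and the tRNA1673-GlnTTG fragment stops before it, so these are in lower case throughout.
tRNA8526-CysGCA 1 to 32: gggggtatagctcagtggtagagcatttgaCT
tRNA6859-ValTAC 1 to 34: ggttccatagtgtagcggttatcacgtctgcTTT
tRNA1673-GlnTTG 1 to 29: ggtcccatggtgtaatggttagcactctg
tRNA1603-ProAGG 1 to 32: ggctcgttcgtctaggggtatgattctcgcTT
tRNA1609-AlaAGC 1 to 33: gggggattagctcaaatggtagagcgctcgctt
tRNA5710-ArgCCG 1 to 33: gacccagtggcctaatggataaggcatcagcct
tRNA21-GlyTCC 1 to 33: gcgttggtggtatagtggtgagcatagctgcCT
tRNA20-AspGTC 1 to 33: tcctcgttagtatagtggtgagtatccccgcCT

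The members span 27 to 34 bases of tRNAs that are 72 to 85 bases long, and 90 of the 97 begin with G. For 26 the listed sequence is longer or shorter than the span, and 7 share their sequence with another listed fragment, so their last base or their tRNA is uncertain. The loop was placed from the listed fragments themselves. It followed from the anticodon's letters in 3 member tRNAs, from a part of these letters in 1, and from the 5 pairing bases around a loop of 7 bases in 4, while 12 were not placed. Reads of near-identical tRNAs could have been split between members. The submitters' processing notes name the rn4 build. Genome positions are not given in the listed values. In the RefSeq annotation of GRCr8 the number of tRNA genes carrying a member anticodon runs from 3 for ArgCCG to 92 each for ProAGG and AlaAGC, with 38 for CysGCA and 6 for ValTAC.

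The libraries held 5125962 to 42674116 reads in all, and the members 172 to 1220 reads in the control libraries and 2097 to 5618 in the ischemic libraries. Levels are in reads per 1000000 of all reads of a library (RPM). A count of 0 allows a true level of up to 3 reads, equal to 0.0703 RPM in the control of rat 72, the deepest library, and to 0.585 RPM in the shallowest. These limits cover counting error only. All 2262 fragments have at least 1 read in every ischemic library, so a fragment absent from an ischemic library could not be listed. Of the 97 members, 17 had reads in every control library and 23 had none in any of them.

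The name of the group was checked against the levels. Among the 27 anticodons with 5′ fragments the members rank 12 to 27 by mean level. They are less abundant than 11 of the other 14 anticodons, but GlnCTG at rank 15, LeuAAG at rank 19 and LeuCAA at rank 21 lie among them. The mean level over all 10 libraries falls from 102 RPM for CysGCA to 0.422 RPM for ArgTCT, while ValCAC, at the top of the list, has 81719 RPM.

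Summed over all members, the level was 52.3, 37.3, 43.7, 33.4 and 28.6 RPM in the controls of rats 45, 52, 61, 71 and 72 in turn. It was 860.1, 643.9, 288, 409.1 and 637.4 RPM in the ischemic libraries of the same rats. The groups do not overlap, with rat 61 lowest and rat 45 highest on the ischemic side. The log2 level was 5.26 ± 0.34 (SD, n = 5) against 9.05 ± 0.62 (SD, n = 5), a difference of 3.79 (p = 0.00794 in a two-sided exact permutation test, which 5 libraries against 5 cannot go below), and it was higher in 5 of 5 rats. With the rats as pairs the smallest possible p is 0.0625, and it was reached.

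The rise was of the size seen in the rest of the tRNA reads. The members held 0.224%, 0.165%, 0.188%, 0.181% and 0.242% of the 5′ reads in the control libraries and 0.229%, 0.186%, 0.209%, 0.158% and 0.138% in the ischemic libraries. These ranges overlap. The means were 0.200% ± 0.0318 (SD, n = 5) and 0.184% ± 0.0370 (SD, n = 5), which differ by -0.0161 percentage points, within the spread (two-sided exact permutation test, p = 0.476). Measured against the tRNA-derived reads outside the members, the log2 level differed by -0.099 (two-sided exact permutation test, p = 0.524).

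For single anticodons, edgeR's quasi-likelihood test was run over the 24 anticodons that reached 10 reads in 5 or more libraries, scaled by the total reads of each library and with Benjamini-Hochberg adjusted p-values. All 10 member anticodons tested were higher in the ischemic group and none was lower, beside 91.7% and 8.33% of all 24. ProTGG, at most 4 reads in a control library, entered the test through the ischemic libraries only and had to differ. The median log2 fold change was 4.69 for these 10 and 4.24 for all 24, so the count does not set the members apart. All 13 member anticodons had ischemic levels above every control level and were higher in 5 of 5 rats, where 92.6% of the 27 anticodons with 5′ fragments did not overlap. Every listed fragment has reads in all 5 ischemic libraries, which favours such a separation at low counts. ArgTCT was separated by 1 read in an ischemic library (0.195 RPM) against 1 read in a control library (0.173 RPM). The size of the rise differed widely between the 10 tested, from a log2 fold change of 1.28 for SerTGA to 5.89 for GlyTCC. The GlyTCC value rests on 12 reads in the control library of rat 72 and at most 2 in any other control library.

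tRNA-Cys(GCA) had the highest mean level of the members in both groups, although GlnTTG and ProAGG exceeded it in the ischemic library of rat 61 and ValTAC in that of rat 72. Its 12 fragments summed to 37.3, 26.0, 27.1, 19.6 and 9.12 RPM in the controls of rats 45, 52, 61, 71 and 72 in turn, and to 320.3, 237.3, 54.5, 114.9 and 177.9 RPM in the ischemic libraries. The ischemic library of rat 61 came closest to the controls. The log2 fold change was 2.93 (standard error 0.41, adjusted p = 8.67e-11 from edgeR), the lowest but 2 among the 10.

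tRNA-Val(TAC), a less abundant relative of the Val tRNAs with the CAC and AAC anticodons, rose more. Its 10 fragments, all of 1 tRNA, gave 2.24, 1.14, 4.43, 2.52 and 3.98 RPM in the control libraries and 136.7, 84.4, 46.2, 104.4 and 186.1 RPM in the ischemic libraries. The control libraries held only 8 to 24 reads, apart from 170 in the deep library of rat 72. The log2 fold change was 5.26 (standard error 0.45, adjusted p = 7.76e-23 from edgeR).

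The Gln and Pro tRNAs also rose, Pro by more than Gln in the ratio of the group means, 48.7 against 25.8. tRNA-Gln(TTG) gave 2.94, 2.27, 3.87, 3.88 and 3.73 RPM in the control libraries, a narrow range, and 136, 89.8, 62.5, 52.9 and 90.1 RPM in the ischemic libraries. tRNA-Pro(AGG), with 19 fragments of 1 tRNA, gave 1.04, 1.42, 1.11, 1.36 and 2.44 RPM in the control libraries and 104.9, 73.1, 55.7, 56.8 and 68.2 RPM in the ischemic libraries. The control library of rat 72 stood above the other controls for Pro, on 104 reads against 6 to 10. The most abundant Pro(AGG) form has the first 32 bases of a listed Pro(TGG) fragment, so those reads could belong to either anticodon. The log2 fold changes were 4.68 for Gln (standard error 0.45, adjusted p = 6.34e-20 from edgeR) and 5.52 for Pro (standard error 0.48, adjusted p = 2.15e-22).

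tRNA-Ala(AGC) and tRNA-Arg(CCG) followed. Ala gave 1.21, 0.568, 2.95, 2.91 and 2.06 RPM in the control libraries and 53.5, 49.3, 28.8, 33.6 and 84.5 RPM in the ischemic libraries. Arg gave 2.07, 1.85, 0.922, 0.971 and 0.914 RPM in the control libraries and 59.6, 68.4, 18.7, 25.6 and 13.7 RPM in the ischemic libraries. Rat 72 was highest of the ischemic libraries for Ala and lowest for Arg. The log2 fold changes were 4.69 (standard error 0.51, adjusted p = 1.98e-16 from edgeR) and 4.81 (standard error 0.64, adjusted p = 5.18e-12).

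tRNA-Gly(TCC), another isoacceptor of the tRNAs behind the most abundant Gly fragments, was almost absent from the control libraries. These held 2, 0, 1, 0 and 12 reads, and the ischemic libraries 141, 133, 58, 33 and 19 reads, which is 26.7, 22.9, 4.47, 6.44 and 2.16 RPM. The ischemic levels thus ran 12.5 ± 11.4 RPM (SD, n = 5). Its log2 fold change of 5.89 has the largest standard error of the 10, 0.81 (adjusted p = 7.68e-07 from edgeR), and rests on few control reads.

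Asp and Ser rose least. tRNA-Asp(GTC) gave 2.76, 2.27, 2.03, 1.55 and 4.22 RPM in the control libraries and 10.6, 6.72, 8.48, 7.41 and 4.43 RPM in the ischemic libraries, where rat 72 moved from 4.22 to 4.43 RPM. tRNA-Ser(TGA) gave 1.04, 1.42, 0.738, 0.388 and 1.38 RPM against 3.22, 2.59, 2.08, 2.15 and 2.84 RPM. The groups do not overlap for either, with rat 72 the highest control for Asp and rat 52 for Ser. The log2 fold changes were 1.49 for Asp (standard error 0.41, adjusted p = 3.53e-04 from edgeR) and 1.28 for Ser (standard error 0.33, adjusted p = 1.71e-04).

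tRNA-Pro(TGG) rose from 0.257 ± 0.114 RPM to 4.74 ± 1.86 RPM (SD, n = 5 each), on 1 to 4 control reads a library, a log2 difference of 4.43 (standard error 0.45, edgeR adjusted p = 2.73e-18). It met the filter through the ischemic libraries only, so this call was fixed by the filter. Ala(CGC), Ser(GCT) and Arg(TCT) have 1 member fragment each and too few reads for the test. Ala(CGC) had 0 to 5 reads in the control libraries and 4 to 15 in the ischemic libraries. The control means were 0.155, 0.0972 and 0.0580 RPM and the ischemic means 1.03, 0.888 and 0.786 RPM. The ischemic library of rat 61 held 28 of the 40 ischemic reads of Arg(TCT).

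Scaling by TMM factors computed on the tRNA-derived reads alone sets each anticodon against the 24 tested together, of which 10 are member anticodons. The median log2 fold change of the 24 anticodons was 0.81 in that fit. ValTAC (1.87), ProAGG (2.07), GlnTTG (1.27), AlaAGC (1.31), ArgCCG (1.39), GlyTCC (2.33) and ProTGG (1.14) were higher, with adjusted p-values from 6.63e-06 to 0.0313 from edgeR. AspGTC (-1.85, adjusted p = 1.04e-04 from edgeR) and SerTGA (-2.09, adjusted p = 3.72e-09) were lower, and CysGCA was at -0.46 (adjusted p = 0.172). So 7 member anticodons were called higher and 2 lower, beside 50% and 25% of all 24. ProTGG is counted in the 7 although it had at most 4 reads in a control library and met the filter through the ischemic libraries only. GlyTCC is counted too, with 12 reads in the control library of rat 72 and at most 2 in any other control library.

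The make-up of the members differed accordingly. tRNA-Cys(GCA) held 71.3%, 69.6%, 62.0%, 58.7% and 31.9% of the member reads in the control libraries and 37.2%, 36.9%, 18.9%, 28.1% and 27.9% in the ischemic libraries. It was lower in 5 of 5 rats, by 28.9 percentage points on average, but the groups overlapped at the control library of rat 72, and over the 13 anticodons its adjusted p was 0.0516 (two-sided exact permutation test). Without that library the difference was -35.6 percentage points and passed (adjusted p = 0.0206).

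Of the 13 shares, 5 passed. ValTAC rose from 7.79% ± 4.42 to 19.95% ± 6.98, GlnTTG from 9.04% ± 3.29 to 15.7% ± 3.50 and ProAGG from 4.18% ± 2.58 to 13.5% ± 3.49 (SD, n = 5 each). AspGTC fell from 7.08% ± 4.33 to 1.55% ± 0.881 and SerTGA from 2.69% ± 1.56 to 0.494% ± 0.140. The adjusted p-values were 0.0344 for ProAGG, AspGTC and SerTGA and 0.0413 for ValTAC and GlnTTG (two-sided exact permutation tests), and each moved its way in 5 of 5 rats. AspGTC was at 14.8% in the control library of rat 72 against 4.64% to 6.08% in the other controls, and without that library its difference was -3.62 in place of -5.54 percentage points. These calls lie close to the threshold, and the adjusted p-values reach from 0.0516 to 0.0737 when 1 of the ischemic libraries of rats 45, 52, 61 and 71 is left out, or for ValTAC and GlnTTG 1 of the control libraries of the same rats. GlyTCC, at an adjusted p of 0.0590, passed without the ischemic library of rat 72 (adjusted p = 0.0344, two-sided exact permutation test). Without the members of repeated sequence or mismatched length none of the 13 passed, with adjusted p-values of 0.0516 for ProAGG and AspGTC, 0.0688 for ValTAC and 0.138 for GlnTTG (two-sided exact permutation tests) and no SerTGA member left. With the rats as pairs none of the 13 can pass (adjusted p = 0.116 at best for these 5).

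Single members were tested together with all 876 fragments that reached 10 reads in 5 or more libraries. Among the 97 members, 29 passed this filter. For 4 of them the filter was met by ischemic libraries only, so that these had to differ, and only 4 members had 10 reads in 3 or more control libraries. All 29 were higher in the ischemic group by edgeR's quasi-likelihood test and none was lower, beside 94.5% and 3.31% of all 876. Without the filter 91 of the 97 members were higher, beside 93.6% of all 2262. The list itself selects on the ischemic side, since every listed fragment has reads in all 5 ischemic libraries. So members near the floor, such as the 23 with no control reads, could hardly be called lower. The log2 fold changes of the 29 ran from 1.59 to 6.33, with a median of 4.52 against 4.23 over all 876. Over all 97 members, 79 had ischemic levels that did not overlap the control levels, beside 82% of all 2262 fragments. The 23 with no control reads had to be among the 79, so the list fixed a part of this count.

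The largest rise among members with a mean of at least 50 reads was in the tRNA1603-ProAGG fragment of positions 1 to 32 shown above. It had 0.345, 0.142, 0.184, 0.194 and 0.211 RPM in the control libraries and 16.3, 21.0, 15.5, 17.8 and 20.3 RPM in the ischemic libraries, the narrowest ischemic spread, relative to its mean, of the 8 sequences shown. Its log2 fold change was 6.33 (standard error 0.61, adjusted p = 3.70e-08 from edgeR). The control libraries held 2, 1, 1, 1 and 9 reads, so it is among the 4 members that met the filter through the ischemic libraries only and had to differ. Its sequence is also the first 32 bases of the tRNA877-ProTGG fragment of positions 1 to 33, so its reads could belong to either tRNA.

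The tRNA6859-ValTAC fragment of positions 1 to 34 came next, with 0, 0.710, 0.553, 1.17 and 0.890 RPM in the control libraries and 53.9, 34.8, 17.3, 55.0 and 103 RPM in the ischemic libraries (log2 fold change 6.24, standard error 0.70, adjusted p = 7.99e-08 from edgeR). Its shorter form of positions 1 to 33 had no reads in 3 of the control libraries and 9.02 to 28.6 RPM in the ischemic libraries (5.66, standard error 0.79, adjusted p = 5.74e-07). Outside the deep control library of rat 72, the controls held at most 6 reads of either form.

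The main tRNA1673-GlnTTG fragment, of positions 1 to 29, had 2.07, 1.42, 2.40, 2.72 and 1.80 RPM in the control libraries and 78.5, 50.3, 42.4, 37.3 and 49.6 RPM in the ischemic libraries (log2 fold change 4.64, standard error 0.51, adjusted p = 6.08e-08 from edgeR). It is 1 of 3 members with at least 10 reads in every control library. The form that reaches position 32 rose by 5.64 (standard error 0.72, adjusted p = 2.32e-07), from 0 to 0.738 RPM to 7.02 to 29.02 RPM.

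The 33-base fragments of Ala and Arg had similar fold changes. The tRNA1609-AlaAGC fragment had 0.345, 0.284, 0.553, 1.17 and 0.328 RPM in the control libraries and 15.0, 15.9, 8.10, 11.1 and 26.4 RPM in the ischemic libraries (log2 fold change 4.91, standard error 0.63, adjusted p = 2.41e-07 from edgeR). The tRNA5710-ArgCCG fragment had 1.04, 0.710, 0.369, 0.583 and 0.375 RPM in the control libraries and 35.5, 36.2, 10.6, 15.6 and 6.81 RPM in the ischemic libraries (5.12, standard error 0.65, adjusted p = 2.43e-07).

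The tRNA20-AspGTC fragment of positions 1 to 33 had 1.90, 0.994, 0.738, 0.388 and 1.55 RPM in the control libraries and 4.93, 3.62, 4.40, 4.49 and 2.16 RPM in the ischemic libraries (log2 fold change 1.75, standard error 0.51, adjusted p = 0.00226 from edgeR). The tRNA21-GlyTCC fragment is listed at 0 reads in all 5 control libraries and at 64, 65, 33, 14 and 9 reads in the ischemic libraries, and was not tested. The same sequence is also listed under GlyTCC with its last position at 32, where the control libraries hold 12 reads and the ischemic libraries 78, so the 0 belongs to that listing and not to the sequence.

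The 2 commonest forms of tRNA-Cys(GCA) differ by a single base at the 3′ end, and their fold changes are set side by side without a test of the difference.
tRNA8526-CysGCA 1 to 32: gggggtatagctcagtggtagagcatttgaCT
tRNA8526-CysGCA 1 to 33: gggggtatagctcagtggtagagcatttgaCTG
The shorter form, which stops just before the anticodon, had 23.5, 14.1, 18.4, 13.6 and 4.08 RPM in the control libraries and 113.4, 87.7, 16.5, 28.7 and 102.1 RPM in the ischemic libraries. Its groups overlapped, since rat 61 went from 18.4 to 16.5 RPM, and its log2 fold change was 2.25 (standard error 0.57, adjusted p = 6.32e-04 from edgeR, higher in 4 of 5 rats). The longer form, which holds the first anticodon base, had 2.76, 2.41, 3.32, 0.583 and 1.08 RPM in the control libraries and 139.2, 100.1, 25.3, 66.7 and 22.6 RPM in the ischemic libraries. It rose by 5.14 on the log2 scale (standard error 0.66, adjusted p = 2.46e-07 from edgeR) and was higher in 5 of 5 rats.

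The balance of the 2 ends over all members of tRNA-Cys(GCA) rests mostly on these same reads and was chosen after they had been seen, so it is described with no test. Among reads that end at position 32 or 33, those ending at 33 made up 10.9%, 13.8%, 12.8%, 6.12% and 16.2% in the control libraries and 54.0%, 51.8%, 58%, 69.3% and 16.6% in the ischemic libraries. The ischemic library of rat 72 lay just above the highest control and far below the other 4. The means were 11.95% ± 3.77 and 49.95% ± 19.8 (SD, n = 5 each), and they differed by 38 percentage points. The difference was 46.3 when ischemic rat 72 was left out. As a share of all Cys(GCA) reads, ends at position 32 fell from 83.5% ± 4.94 to 47.9% ± 19.8. Leaving out ischemic rat 72 gave a difference of -44.0 percentage points. This share rests on the same reads, so it too is described with no test.

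Fragments of the other anticodons had other main ends, given here for the control and then the ischemic group. Of the ValTAC reads, 28.7% ± 25.4 and 46.7% ± 8.40 ended at position 34, the first anticodon base. At position 30 ended 35.4% ± 21.7 and 18.5% ± 7.17. The control means lie within the spread and rest on few reads. Position 34 led in the controls of rats 52 and 71, with 62.5% of 8 and 46.2% of 13 reads. Position 30 led in those of rats 45, 61 and 72. Of the GlnTTG reads, 72.7% ± 7.52 and 71.8% ± 6.54 ended at position 29, which lies 5 bases before the anticodon, in the stem. ProAGG had 3 places (SD, n = 5 each). Position 28 in the stem held 34.0% ± 18.4 and 36.8% ± 9.99 of its reads, position 31 held 22.2% ± 7.82 and 8.20% ± 3.17, and position 32, the base before the anticodon, 42.3% ± 12.7 and 54.1% ± 10.9. AspGTC ended mostly at position 33, again the base before the anticodon, in 71.2% ± 14.6 and 77.7% ± 10.7 of its reads, and at position 32 in 27.3% ± 15.7 and 11.6% ± 9.78. All ArgCCG member reads ended at position 33. Only the most abundant end over both groups was tested, position 34 for ValTAC, 29 for GlnTTG, 32 for ProAGG and 33 for AspGTC. None of these shares passed (adjusted p of 0.349 or more, two-sided exact permutation tests, adjusted together with CysGCA and ArgCCG). The ArgCCG share was 100% in every library and could not have passed. The Ser(TGA) members repeat a single sequence of 32 bases under last positions 29, 31 and 32, so their ends were not compared.

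Over all placed members together, the base before the anticodon was the last base of 67% ± 9.08 of the reads in the control group and of 36.4% ± 5.25 in the ischemic group. The first anticodon base was the last in 9.40% ± 1.80 and 28.3% ± 6.75, and the base 5 before the anticodon in 9.06% ± 3.30 and 19.8% ± 6.54 (SD, n = 5 each). These values combine the ends of each tRNA with the mix of tRNAs described above, in which Cys(GCA) was lower.

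The share of reads ending inside the anticodon loop was tested over the 19 members of the 3 tRNAs placed by their anticodon letters, 1 Asp and 2 Gln tRNAs. It was 51.5%, 53.1%, 53.1%, 39.3% and 66.7% in the control libraries and 32.7%, 33.9%, 26.6%, 29.5% and 29.8% in the ischemic libraries. The groups do not overlap, and the difference was -22.2 percentage points (52.7% ± 9.71 against 30.5% ± 2.89, SD, n = 5 each, two-sided exact permutation test, p = 0.00794). Averaged over anticodons in place of reads, so that Asp and Gln count equally in every library, it was -1.43 percentage points (p = 0.611, two-sided exact permutation test), and with the 65 members placed by any means, 80.8% to 94.1% of member reads, it was -11.6 (p = 0.0317). The mean listed last position of the member reads was 31.9 in both groups, a difference of -0.015 positions (p = 0.929, two-sided exact permutation test).

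Within a tRNA, members that end at the same place often differ by a single base. Each was compared with the most abundant 5′ fragment of its tRNA. Of the 97 members, 38 carry the bases of that fragment, 29 differ from it by 1 substitution and 12 lack 1 base. In tRNA1603-ProAGG that fragment has C at position 9, while the reads of all listed fragments pieced together give G there. The substitutions are concentrated. Numbering starts with 1 at the first base of the tRNA, and 17 of the 29 are at position 9, 5 at position 26 and 4 at position 19, and the 12 missing bases include 3 each at these positions. The 17 come from tRNA1603-ProAGG, tRNA1673-GlnTTG, tRNA4473-ProTGG and tRNA5710-ArgCCG, in part as the same base at several ends. Some forms match another listed tRNA. The G26T form of tRNA1609-AlaAGC shares its first 31 bases with the tRNA934-AlaAGC fragment, and tRNA877-ProTGG has C at position 9. Among the 615 single substitutions of the other 5′ fragments, 16.3% are at position 9 and 4.07% at position 26, against 58.6% and 17.2% of the 29 members. Rarer substitutions of tRNAs this low could not have reads in every ischemic library, so the 2 lists differ in what could be listed, and the difference was not tested. In tRNAs a purine at position 9 and a guanosine at position 26 are often methylated, and uridines of the D loop are often reduced to dihydrouridine. The part of such modifications, and of differences between tRNA genes, in the listed bases was not tested here.

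The clearest set is that of tRNA-Arg(CCG), whose 5 members all span positions 1 to 33 and differ only at position 9. They are shown with base 9 in capitals, or in lower case where 1 of the 2 guanines at positions 9 and 10 is missing.
Arg(CCG) most abundant: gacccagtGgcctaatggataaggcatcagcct
Arg(CCG) G9T: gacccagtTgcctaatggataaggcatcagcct
Arg(CCG) missing base: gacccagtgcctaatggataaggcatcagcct
Arg(CCG) G9C: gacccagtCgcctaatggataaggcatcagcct
Arg(CCG) G9A: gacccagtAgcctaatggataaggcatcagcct
In this order the forms had 675, 255, 110, 88 and 77 reads over the 5 ischemic libraries and 32, 27, 3, 5 and 7 reads over the 5 control libraries. The forms other than the most abundant made up 50%, 61.5%, 60%, 40% and 59.0% of the reads in the control libraries, on 5 to 39 reads each, and 40.5%, 47.1%, 43.0%, 38.9% and 50.4% in the ischemic libraries. The ischemic value was lower in 5 of 5 rats, by 10.1 percentage points on average, and the groups overlap (adjusted p = 0.106 over 4 sites, two-sided exact permutation test).

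tRNA-Pro(AGG) shows the same site with another order of bases, again with base 9 in capitals.
Pro(AGG) most abundant: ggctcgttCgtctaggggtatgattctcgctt
Pro(AGG) C9G: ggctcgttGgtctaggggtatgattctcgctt
Pro(AGG) C9A: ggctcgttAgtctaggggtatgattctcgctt
Pro(AGG) C9T: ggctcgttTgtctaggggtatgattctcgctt
These forms had 679, 430, 74 and 31 reads over the ischemic libraries and 14, 27, 0 and 3 reads over the control libraries. The control reads of the first 2 forms were 2, 1, 1, 1 and 9 against 1, 5, 1, 1 and 19 in rats 45, 52, 61, 71 and 72, so C9G was the commoner in rats 52 and 72, the rarer in rat 45 and level in the other two. Over all ends, forms other than the most abundant made up 52.9% ± 3.91 in the control and 45.7% ± 7.003 in the ischemic group (SD, n = 5 each, adjusted p = 0.106, two-sided exact permutation test). The control shares rest on 113 reads in all and on as few as 6 in a library, so the small control SD does not measure counting error. The form with C at position 9 also has the first 32 bases of a tRNA877-ProTGG fragment. The tRNA gene's own base was not compared here. In tRNA1673-GlnTTG the forms with G9T, G9C, G9A or a missing base were rarer, 11.2% ± 3.47 and 11.9% ± 2.28 (adjusted p = 0.675, two-sided exact permutation test).

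tRNA8526-CysGCA varies at position 19, in the D loop, with T19C, T19G and a missing base, of which the missing base is the commonest, with 249 control and 785 ischemic reads. These forms made up 23.3%, 32.2%, 15.7%, 25% and 37.5% of the reads in the control libraries and 14.8%, 15.3%, 11.98%, 11.7% and 23.8% in the ischemic libraries. The share was lower in 5 of 5 rats, by 11.2 percentage points, with overlapping groups and an adjusted p of 0.106 (two-sided exact permutation test). Without members whose listed length differs from the span, which removes the missing-base forms, the difference was -3.13 percentage points. The ischemic library of rat 72, which stood apart in the ends of Cys(GCA), also had the highest of the ischemic shares here. The 4 sites were chosen after their values had been seen.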

How the data were processed

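Small RNA (tissue RNA, TruSeq kit) of 10 libraries from 5 rats was sequenced. The authors removed reads under 18 nts, compared the rest with miRBase and other non-coding RNA databases and matched them to the Genomic tRNA Database. The authors deposited raw counts per fragment and library. A second deposited value per library, headed TPM, holds RPM, each count scaled to 1000000 reads of the whole library with no correction for length. Reads divided by RPM gave the library totals, 5125962 to 42674116, used here as library sizes. The row of column sums was left out.

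Fragments, and the 5′ reads summed by anticodon, that reached 10 reads in 5 or more libraries were tested with edgeR 4.0.16 (R 4.3.3, quasi-likelihood test, Benjamini-Hochberg adjustment at 0.05), DESeq2 1.42.0 being an alternative, both tested on simulated data. A standard error given with edgeR is the size of the log2 fold change over the square root of the test's F statistic. Single values per library were compared by two-sided exact permutation tests over 252 splits (Python 3.11.15, numpy 2.4.6, pandas 2.3.3). Fragments named are the most abundant of the 8 leading anticodons and up to 5 with the largest rise or fall past the threshold, a mean of at least 50 reads and the same direction in 5 of 5 rats. No member fell. The Ser, Cys, Arg and Pro forms and the shares of ends and sites were chosen after their values were seen. Members and lists were chosen with earlier results of these data known.

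Both libraries of a number come from 1 rat, so the numbers pair the libraries. The correlation of a rat's deviations from the group means, over 876 fragments as log2(RPM + 1), was 0.0615, 0.142, -0.148, 0.253 and 0.0113 for rats 45, 52, 61, 71 and 72. The tests are unpaired, with the rat as a block as an alternative. Other alternatives were groups by source label, only the 6 libraries with matching labels, each library left out, TMM factors, reads outside the list as library sizes, other filters, other denominators, other loop definitions, and members without repeated or mismatched sequences.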

Additional observations from a re-analysis of the deposited data

Results flagged for a closer look

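Levels and shares named above were examined for a library far from the others, in 83 groups of 5 libraries, of which chance would mark about 1 in 20. There were 4. The share of AspGTC in member reads was 14.8% in the control library of rat 72, with the nearest other control at 6.08%. The level of ProAGG was 2.44 RPM in the same library, with the nearest other control at 1.42 RPM. The level of AlaCGC was 0.518 RPM in the control library of rat 45, on 3 reads, with the nearest other control at 0.142 RPM. The level of ArgTCT was 2.16 RPM in the ischemic library of rat 61, with the nearest other ischemic library at 0.681 RPM.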

How the results depend on the processing

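Leaving out single libraries kept 28 to 29 member fragments and 10 member anticodons called higher, and using the reads outside the list, DESeq2 or the rat as a block kept 28 to 29 fragments. Without a filter 91 of 97 member fragments were higher, beside 93.6% of all 2262 listed. Requiring 10 reads in all 10 libraries left 3 fragments and 2 anticodons to test, all higher. With TMM factors 4 member fragments were higher and 3 lower, beside 18.9% and 11% of all 876. The higher ones included tRNA1603-ProAGG 1 to 32 and its 1 to 28 form with G at position 9. Both of these met the filter through the ischemic libraries only. The log2 fold changes of CysGCA, AspGTC and SerTGA turned to -0.46, -1.85 and -2.09, and those of the main CysGCA and AspGTC fragments to -1.70 and -2.06.

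Groups formed by the source labels gave 0 fragments, 0 anticodons and 0 shares. The log2 fold changes became -0.79 for CysGCA, -0.14 for GlnTTG, -1.15 for ArgCCG, -1.91 for GlyTCC, -0.43 for ProTGG and -0.023 for SerTGA. Those of single fragments became -0.64 and -1.09 for CysGCA 1 to 32 and 1 to 33, -0.010 and -0.44 for GlnTTG 1 to 29 and 1 to 32, and -1.12 for ArgCCG. In percentage points the shares became 1.31 for AspGTC and -0.66 for GlyTCC, the main ends -6.95 for AspGTC and 1.23 for GlnTTG, and the site at position 19 1.74. The member level became 0.12 and the share ending in the loop -6.52.

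In the 6 libraries with matching labels no exact test can fall below 0.1. The member level differed there by 3.26, the loop share by -24.0 percentage points, 0 shares passed, and the main ends of AspGTC and GlnTTG turned to -0.37 and 0.32. With the rats as pairs, a replicate block, the member level (3.79) and the loop share (-22.2) had p = 0.0625 in the exact permutation test, the smallest possible, and 0 shares passed, so the pairing could not keep these calls. It changed no other call of the edgeR fits but that of 1 fragment.

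Against tRNA-derived reads outside the members the level differed by -0.099. Without repeated or mismatched sequences the members' share of 5′ reads differed by 2.22e-04 percentage points, 0 anticodon shares passed, GlnTTG at position 9 turned to -2.96, and GlyTCC and SerTGA had no member left. The loop share was -7.07 in a fixed window of positions 32 to 36 and -1.43 as a mean over anticodons. With 1 library left out, the difference in mean last position ranged from -0.066 to 0.091 and passing anticodon shares from 0 to 7. The GlnTTG end share then ranged from -3.91 to 0.99 and its site share from -0.62 to 1.67. Low control counts, under 10 reads for most members, limit every fold change. The cause of these changes was not tested.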
